A study of Homo sapiens with 54 samples.

Results

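The response of HepG2 cells to nifedipine was compared between 48 h and 24 h of exposure. HepG2 is a human hepatocellular carcinoma line that is widely used as a liver cell model. The arrays were selected by the compound and time in their labels, and 18 of the 54 arrays of the series carried the comparison. These were 3 cultures with 420 µM nifedipine for 48 h, 6 cultures with 0.5 percent dimethyl sulfoxide (DMSO) for 48 h, 3 cultures with 420 µM nifedipine for 24 h and 6 cultures with 0.5 percent DMSO for 24 h. The DMSO cultures of each time came from 2 solvent exposures with 3 replicates each, and the labels call the replicates biological. All cultures were of the same line in 6-well plates, and the remaining arrays of the series held 6 other compounds at the same times. A single concentration of nifedipine was used, so nothing here bears on dose. Each array gave a log2 expression level for 20056 Ensembl gene IDs, and all of them entered the comparison.

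Nifedipine is a dihydropyridine that blocks L-type voltage-gated calcium channels, which let calcium into excitable cells such as those of vascular smooth muscle and heart. It is used against high blood pressure and angina. It is oxidised mainly in the liver, where transcript levels can change over hours to days of exposure to a drug. No gene name is attached to the Ensembl IDs in the files. Genes are therefore identified by ID, at most 2 higher and 2 lower in a comparison, and no role can be stated for them. For the same reason the labelled cell line could not be checked against liver marker genes.

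The response at a time was the log2 level with nifedipine minus that with DMSO. The quantity compared was the 48 h response minus the 24 h response, called the difference between the times below. A difference under 0 means that nifedipine stood lower relative to DMSO at 48 h than it did at 24 h. It can arise in the nifedipine cultures, in the DMSO cultures or in both, so the levels of all 4 groups are given. It was tested for every gene with limma, a linear model that pools information on the spread across genes, and p-values were adjusted over all 20056 genes by the method of Benjamini and Hochberg. A gene was called where the adjusted p was under 0.05. In such bulk RNA, fewer cells expressing a gene and less of its RNA per cell cannot be told apart.

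The 18 arrays had medians between 5.70 and 5.99 on the log2 scale, no 2 of them were identical, and the highest correlation between a pair was 0.997. The slope of an array's values on the mean of all arrays was 0.965 to 1.04 in 17 arrays. It was 0.911 in DMSO 24 h exposure 2 replicate 2, an array with a compressed range, and the other DMSO 24 h arrays had 1.01 or more. Results are therefore given with and without this array. Leaving it out changes the 24 h baseline of every gene. The precision is limited by the number of arrays, 3 with nifedipine per time, and by the spread. The spread was estimated over all 54 arrays of the series, so arrays of other compounds also entered it. The median standard error (SE) of the difference between the times was 0.23 log2 units, and its 95% interval reached a median of 0.46 to each side.

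With all arrays, the nifedipine response differed between 48 h and 24 h in 8 genes. For the other genes no difference was detectable at the precision of that fit. Other settings, given below, called from 0 to 1080 genes, and the counts here are those with all arrays. Of the 20056 genes, 8 were called, which is 0.0399 percent, with 4 higher and 4 lower (0.0199 percent each) at 48 h than at 24 h (limma, two-sided). Their differences ran from -2.60 to -0.87 and from 1.02 to 1.09. All 4 genes with a lower response at 48 h had risen at 24 h, and 3 of the 4 genes with a higher response at 48 h had fallen at 24 h. In 7 of the 8 the response was smaller in absolute size at 48 h. Of the 8, 2 were called at 48 h and 7 at 24 h. The 24 h response enters both the difference and these counts, so the counts describe the 8 genes and are no separate test.

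The largest fall was that of ENSG00000151012. Its log2 levels were 10.27, 9.38 and 8.73 with nifedipine at 48 h, against a lowest, median and highest DMSO level at 48 h of 7.85, 9.02 and 9.48. At 24 h the nifedipine levels were 10.49, 10.49 and 9.96, against DMSO levels of 6.71, 6.99 and 7.53. The groups overlapped at 48 h and were separate at 24 h. The 48 h response was 0.64 (SE 0.30, limma adjusted p = 0.287), or 1.56-fold, and the 24 h response was 3.25 (SE 0.30, adjusted p = 1.03e-09), or 9.48-fold. The difference between the times was -2.60 (SE 0.43, 95% interval -3.46 to -1.74, limma adjusted p = 0.00277). The call was lost with no replicate block (limma adjusted p = 0.0988) and with DMSO exposure 1 as the only control (adjusted p = 0.216). Against the matched DMSO arrays, the 3 replicates gave 0.94, 0.23 and 0.77 at 48 h and 3.42, 3.35 and 2.98 at 24 h, with no overlap. Both sides contributed, since the mean level at 48 h minus that at 24 h was -0.85 with nifedipine and 1.75 with DMSO.

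ENSG00000070669 was also lower, but the nifedipine level hardly differed between the times. Its levels were 12.94, 12.59 and 12.68 with nifedipine at 48 h, against a lowest, median and highest DMSO level of 11.10, 11.69 and 12.14. At 24 h they were 12.60, 12.54 and 12.19 with nifedipine, against 8.79, 9.37 and 9.50 with DMSO. Nifedipine stood above DMSO in every array at both times. The response was 1.07 (SE 0.27, limma adjusted p = 0.00812), or 2.11-fold, at 48 h and 3.19 (SE 0.27, adjusted p = 1.52e-10), or 9.12-fold, at 24 h. The difference was -2.11 (SE 0.38, 95% interval -2.88 to -1.35, limma adjusted p = 0.00607). The call was lost with the DMSO exposures averaged (limma adjusted p = 0.125), with DMSO exposure 1 alone (adjusted p = 0.209) and with exposure 2 alone (adjusted p = 0.0582). The mean level at 48 h minus that at 24 h was 0.30 with nifedipine and 2.41 with DMSO, so the smaller response at 48 h lay mostly in the higher solvent level.

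The other 2 genes with a lower response took opposite forms. One had a difference of -1.96 (limma adjusted p = 0.00259), with a response of -0.20 at 48 h and 1.75 at 24 h. Its level at 48 h minus that at 24 h was 0.31 with nifedipine and 2.27 with DMSO, the same form as ENSG00000070669. The other had a difference of -0.87 (limma adjusted p = 0.00415), with a response of 0.30 at 48 h and 1.16 at 24 h. There the nifedipine level differed by -0.79 between the times and the DMSO level by 0.073. The DMSO mean was thus over 1 log2 unit higher at 48 h than at 24 h in 3 of the 4 genes with a lower response. Over all genes, the level at 48 h minus that at 24 h had a standard deviation (SD) of 0.35 with nifedipine and 0.19 with DMSO.

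**Figure D1:**
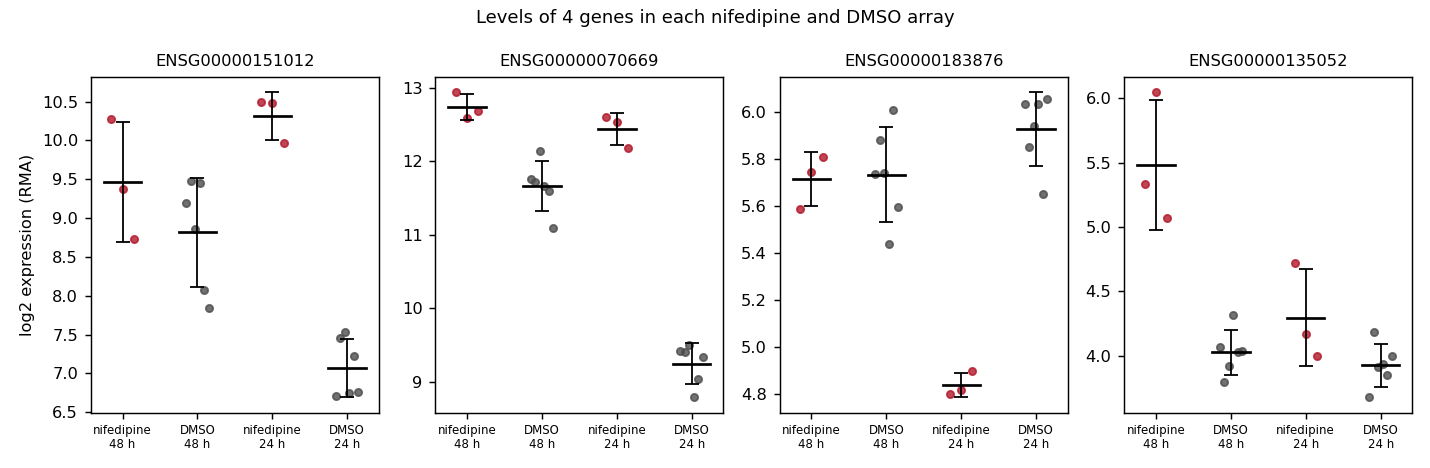
Log2 expression levels (RMA, y axes) of 4 genes in each array, with nifedipine in red and DMSO in grey, at 48 h and then 24 h on each x axis. Points are arrays, horizontal lines are means and bars are 1 SD (n = 3 nifedipine and 6 DMSO arrays per time). In ENSG00000151012 and ENSG00000070669 the DMSO level was higher at 48 h, and in ENSG00000183876 and ENSG00000135052 the nifedipine level was.

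Among the genes with a higher response at 48 h, ENSG00000183876 had the smallest SD among the nifedipine arrays at 24 h. Its levels were 5.59, 5.75 and 5.81 with nifedipine at 48 h, against a lowest, median and highest DMSO level of 5.44, 5.74 and 6.01. At 24 h they were 4.80, 4.82 and 4.90 with nifedipine, against 5.65, 5.98 and 6.05 with DMSO. The nifedipine arrays lay within the DMSO range at 48 h and below every DMSO array at 24 h. The response was -0.020 (limma adjusted p = 0.975) at 48 h and -1.09 (adjusted p = 1.86e-08), or 0.471-fold, at 24 h. The difference was 1.07 (SE 0.17, 95% interval 0.73 to 1.40, limma adjusted p = 0.00259). The call was lost with only the 18 nifedipine and DMSO arrays in the fit (limma adjusted p = 0.125), with cyclic loess (adjusted p = 0.120) and with DMSO exposure 1 as the only control (adjusted p = 0.209). The nifedipine level was 0.87 higher at 48 h than at 24 h, and the DMSO level differed by -0.19.

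ENSG00000135052 had the opposite course, with a response that passed the test at 48 h. Its levels were 5.34, 6.05 and 5.07 with nifedipine at 48 h, against a lowest, median and highest DMSO level of 3.80, 4.03 and 4.32. At 24 h they were 4.72, 4.17 and 4.00 with nifedipine, against 3.68, 3.92 and 4.19 with DMSO. All 3 nifedipine arrays stood above DMSO at 48 h, and the groups overlapped at 24 h. The response was 1.46 (limma adjusted p = 8.59e-09), or 2.75-fold, at 48 h and 0.37 (SE 0.15, adjusted p = 0.152) at 24 h. The difference was 1.09 (SE 0.22, 95% interval 0.65 to 1.52, limma adjusted p = 0.0283), and the nifedipine level was 1.19 higher at 48 h while the DMSO level differed by 0.10. With no replicate block the adjusted p was 0.0515 (limma). This gene was called in 3 of the 10 other settings tried that gave it a value, with adjusted p up to 0.838, and in 10 of the 18 fits that left out 1 of the 18 arrays.

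The remaining 2 genes with a higher response at 48 h resembled ENSG00000183876 in their responses, but the DMSO level had a larger part in them. Their differences were 1.02 and 1.03 (limma adjusted p = 0.00415 for each). The responses were 0.087 and 0.35 at 48 h, neither of which passed the test, and -0.94 and -0.67 at 24 h, both of which did. So 3 genes were lower with nifedipine at 24 h and had no called response at 48 h. In these remaining 2, the mean level at 48 h minus that at 24 h was 0.56 and 0.54 with nifedipine. With DMSO it was -0.47 and -0.48, so both sides contributed. Both genes lost their call with only the 18 nifedipine and DMSO arrays in the fit (limma adjusted p = 0.326 and 0.219). The same held with cyclic loess (limma adjusted p = 0.181 and 0.205).

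**Figure D2:**
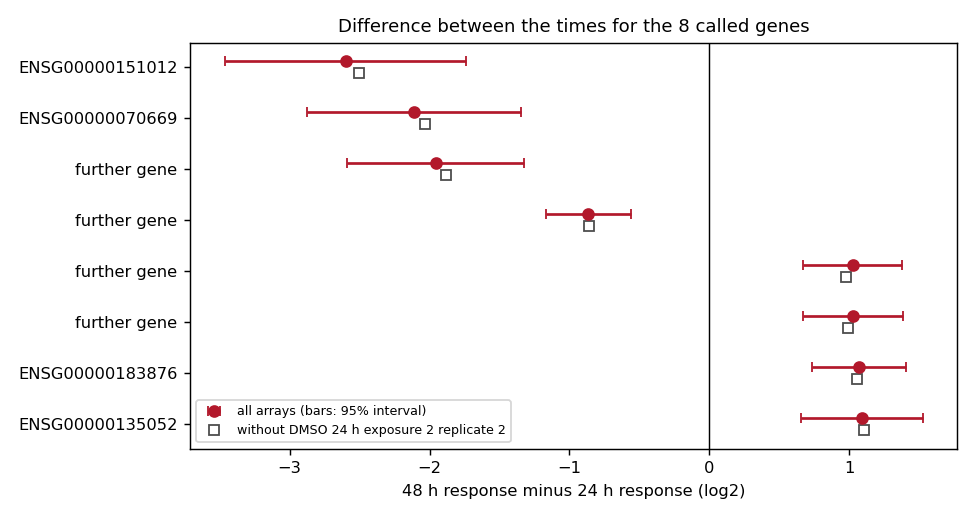
Difference between the times, as the 48 h response minus the 24 h response in log2 units (x axis), for the 8 called genes (y axis). Red points are the values with all arrays and bars their 95% intervals, and open squares are the values without DMSO 24 h exposure 2 replicate 2. The 4 negative values run from -2.60 to -0.87, the 4 positive ones from 1.02 to 1.09, and no square lies outside the bar of its gene.

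Leaving out DMSO 24 h exposure 2 replicate 2 gave 9 called genes, 0.0449 percent of the 20056, with 5 higher and 4 lower, and all 8 genes called with every array were among them. The differences were -2.50 (limma adjusted p = 0.00755) for ENSG00000151012 and -2.03 (adjusted p = 0.0159) for ENSG00000070669. They were 1.05 (limma adjusted p = 0.00711) for ENSG00000183876 and 1.11 (adjusted p = 0.0355) for ENSG00000135052. The additional gene had a difference of 1.01 (limma adjusted p = 0.0404) without the array and 0.95 (adjusted p = 0.0675) with it. In all 9 genes the matched differences of the 3 replicates at 48 h did not overlap those at 24 h. This was so in 3371 of all genes, or 16.8 percent, with 48 h above in 2159 and below in 1212.

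The array changed the distribution over all genes more than the list of called genes. With all arrays, 1826 genes had an unadjusted p under 0.05, against 1003 at a share of 0.05, and 1126 of them were higher and 700 lower at 48 h. Without the array the number was 1364, with 880 higher and 484 lower. The median difference between the times was 0.074 with all arrays and 0.049 without it. With all arrays 61.2 percent of genes lay above 0. Centring each array on its median sets the median difference near 0 by construction, and 49.4 percent then lay above 0, so the share above 0 depends on the scaling. A difference of 1 or more in absolute size was found in 185 genes with all arrays, of which 7 were called, and in 85 genes without the array, of which 6 were called. The largest value that was not called was -2.09 (SE 0.79, limma adjusted p = 0.405), which was -1.75 without the array. It did not pass the adjustment over all genes.

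The difference also depended on the level of a gene. The genes were put in 4 equal groups of 5014 by their mean level over all arrays. From the lowest to the highest group, the median difference was 0.090, 0.14, 0.051 and -0.073 with all arrays, and 0.066, 0.084, 0.030 and -0.040 without DMSO 24 h exposure 2 replicate 2. Lower-level genes had small positive medians and the highest group a small negative one, and each median was nearer to 0 without that array. Among genes with an unadjusted p under 0.05 (limma), more were higher than lower at 48 h in every group. In the highest group 460 were higher and 225 lower, against the sign of its median, and without the array 418 and 155. The groups held 1, 1, 1 and 5 of the called genes.

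At 48 h, 1162 genes differed between nifedipine and DMSO, which is 5.79 percent, with 492 higher (2.45 percent) and 670 lower (3.34 percent). At 24 h, 1641 genes did, which is 8.18 percent, with 708 higher (3.53 percent) and 933 lower (4.65 percent). Of these, 204 genes were higher at both times, 400 were lower at both and 0 moved in opposite directions. In the genes higher at both times the median response was 0.67 at 48 h and 0.71 at 24 h, and 1 of them, ENSG00000070669, differed between the times. In the genes lower at both times the medians were -0.86 at 48 h and -0.88 at 24 h, and 0 were called as different between the times by limma, with 45 at an unadjusted p under 0.05.

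Most genes that were called at only 1 time had the same sign at the other. Of 288 genes higher at 48 h alone, 231 were also above 0 at 24 h, and of 270 lower at 48 h alone, 252 were also below 0. Of 504 genes higher at 24 h alone, 435 were also above 0 at 48 h, and of 533 lower at 24 h alone, 444 were also below 0. The difference between the times itself was called in 1, 0, 3 and 3 genes of these 4 sets. Its unadjusted p was under 0.05 (limma) in 156, 69, 210 and 231 of them, against 1826 of all genes. Each set was chosen by responses that enter the difference, so these counts are no separate test. For the genes of these sets that were not called, the data do not decide whether the response differed. Among the 17857 genes called at neither time, 0 were called for the difference and 1091 had an unadjusted p under 0.05.

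**Figure D3:**
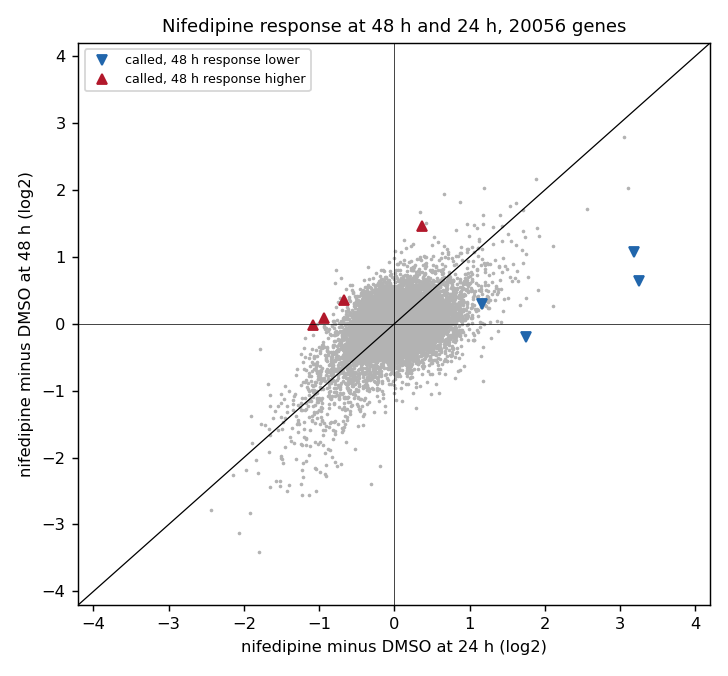
Nifedipine minus DMSO in log2 units at 48 h (y axis) against 24 h (x axis), with 1 grey point for each of 20056 genes and a line where both responses are equal. Blue triangles mark the 4 called genes with a lower response at 48 h and red triangles the 4 with a higher one. Across genes the Pearson correlation of the responses was 0.446, and it was 0.566 without DMSO 24 h exposure 2 replicate 2.

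With all arrays, the correlations among the replicates covered a wider range at 24 h than at 48 h, and this range depended on DMSO 24 h exposure 2 replicate 2. The matched difference of each replicate, taken against the DMSO arrays of its own time and number, was correlated across the 20056 genes with that of every other replicate. No 2 of these differences share an array, but all share the joint normalization, and genes are not independent replicates. Replicate 3 at 24 h had Pearson correlations of 0.598, 0.581 and 0.606 with 48 h replicates 1, 2 and 3. With 24 h replicates 1 and 2 it had 0.475 and 0.232. With all arrays, its values with the 48 h replicates were thus above those with its own time. Replicates 1 and 2 at 24 h had 0.706 with each other, and the 48 h replicates had 0.509 to 0.595 among themselves. The lowest correlation between times was -0.15, between 48 h replicate 2 and 24 h replicate 2. The next lowest was 0.083, between 48 h replicate 2 and 24 h replicate 1. That value does not involve DMSO 24 h exposure 2 replicate 2 and was the same without it.

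DMSO 24 h exposure 2 replicate 2 is 1 of the 2 matched controls of nifedipine 24 h replicate 2, so its compressed range enters that replicate. Without it, 24 h replicate 2 had a correlation of 0.585 with 24 h replicate 3 and 0.701 with 24 h replicate 1, and its correlation with 48 h replicate 2 was 0.338. The correlations among the 24 h replicates were then 0.475 to 0.701, with a median of 0.585, against a median of 0.581 at 48 h. The value of 0.585 between 24 h replicates 2 and 3 was then close to those of 24 h replicate 3 with the 48 h replicates, so only its lower value of 0.475 with 24 h replicate 1 still set it apart from its own time. The 48 h replicates 2 and 3 still had higher correlations with 24 h replicate 3 than with the other 24 h replicates, and 48 h replicate 1 had its highest, 0.622, with 24 h replicate 2. With all arrays, after cyclic loess normalization 24 h replicate 3 had 0.611, 0.573 and 0.606 with the 48 h replicates, and 0.494 and 0.288 with 24 h replicates 1 and 2. Gene by gene and with all arrays, 24 h replicate 3 was the nearest of the 24 h replicates to the mean 48 h response in 11807 genes, or 58.9 percent, against 24.8 percent for replicate 1 and 16.3 percent for replicate 2. It was the nearest in 7 of the 8 called genes.

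**Figure D4:**
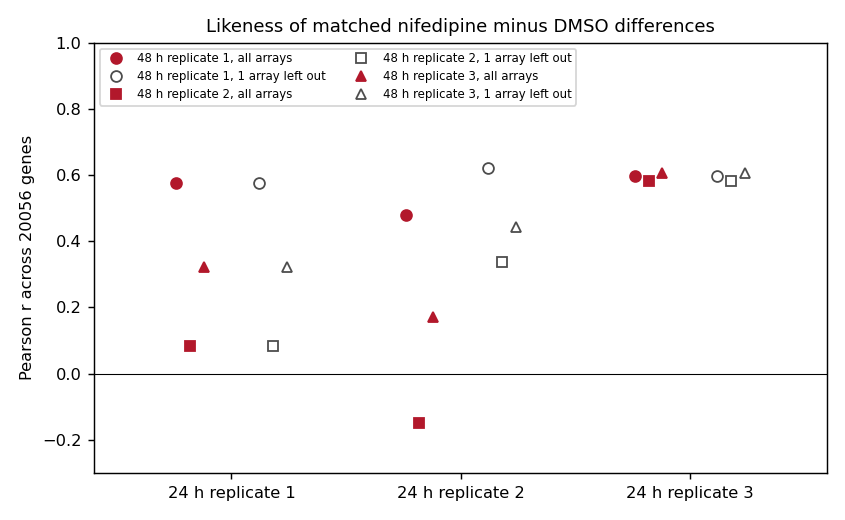
Pearson correlation across 20056 genes (y axis) of the matched nifedipine minus DMSO difference in each 48 h replicate (circle, square and triangle for replicates 1, 2 and 3) with that in each 24 h replicate (x axis). Red symbols are from all arrays and open symbols from the arrays without DMSO 24 h exposure 2 replicate 2. The values lie between 0.581 and 0.606 for 24 h replicate 3, and between -0.15 and 0.576 for the others with all arrays.

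The number of called genes rested on single arrays. Without nifedipine 24 h replicate 3 it was 36, with 19 higher and 17 lower, and 7 of the 8 genes were among them. Without DMSO 48 h exposure 1 replicate 3 it was 13, with all 8 among them. It was 5 without nifedipine 24 h replicate 1, 5 without nifedipine 24 h replicate 2 and 5 without nifedipine 48 h replicate 2. The 13 other fits that left out 1 of the 18 arrays gave counts within 1.5 times the 8. ENSG00000151012 and ENSG00000183876 were called in all 18 of these fits and ENSG00000070669 in 16, though each lost its call in other settings given above. Arrays of other compounds mattered through the shared estimate of the spread, and leaving out piperonyl butoxide 48 h replicate 1, which had a slope of 0.678, gave 19 called genes, 12 higher and 7 lower.

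**Figure D5:**
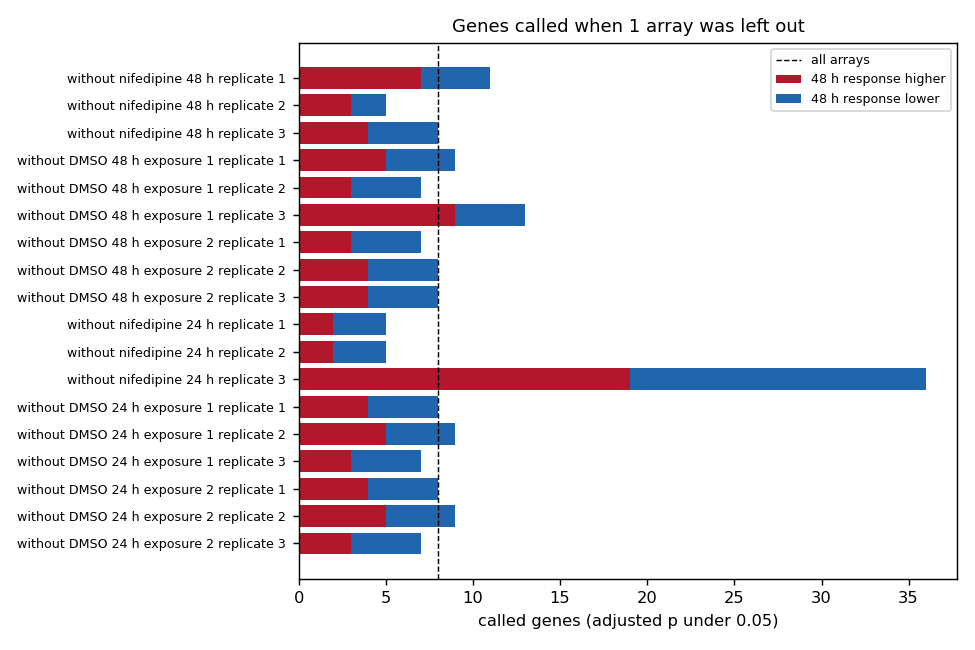
Number of genes called for the difference between the times (x axis), with genes higher (red) and lower (blue) at 48 h stacked, in fits that each left out the array named on the y axis. The dashed line is the count of 8 with all arrays, and the longest bar is the 36 genes without nifedipine 24 h replicate 3.

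Without the 4 arrays of the series that had a slope below 0.95, the median SE was 0.16 and 48 genes were called, 0.239 percent, with 26 higher and 22 lower. The 4 were DMSO 24 h exposure 2 replicate 2, NNK 24 h replicate 2, piperonyl butoxide 24 h replicate 2 and piperonyl butoxide 48 h replicate 1, and none held nifedipine. All 8 genes were among the 48. Of the 22 genes with a lower response at 48 h, 17 were called as higher at 24 h. Of the 26 with a higher response, 12 were called as lower at 24 h. Over all 20056 genes this fit called 1283 as higher and 1611 as lower at 24 h. The absolute response was smaller at 48 h in 26 of the 48, against 7 of the 8 above. The 48 h and 24 h responses had opposite signs in 26 of the 48, against 3 of the 8. The differences ran from -2.48 to 1.33, and the smallest in absolute size was 0.57. In this wider list 32 genes were called at 48 h, 30 at 24 h and 14 at both times. Over all genes 2786 were called at 48 h and 2894 at 24 h in this fit. The responses enter both the difference and these counts, so the counts describe the list and are no separate test.

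The same difference for the other compounds was taken against the same DMSO arrays, so a change of the solvent level enters all of them. For ENSG00000151012 it was -2.60 with nifedipine, -3.30 (limma adjusted p = 1.66e-05) with piperonyl butoxide, -1.65 with tolbutamide, -1.10 with 2-nitrofluorene, -1.08 with methapyrilene, -0.62 with NNK and 0.13 with clonidine. For ENSG00000070669 it was -2.11 with nifedipine, -2.56 (limma adjusted p = 0.000759) with tolbutamide and -2.46 (adjusted p = 0.000184) with piperonyl butoxide, and lay between -1.44 and -0.019 with the other 4. For ENSG00000183876 it was 1.07 with nifedipine and lay between -0.25 and 0.51 with the other 6 compounds. For ENSG00000135052 it was 1.09 with nifedipine, 0.87 (limma adjusted p = 0.140) with methapyrilene and between -0.35 and 0.34 with the other 5. The called gene with -1.96 had -2.99 (limma adjusted p = 2.53e-07) with piperonyl butoxide and -1.95 (adjusted p = 0.0018) with tolbutamide. With piperonyl butoxide, the genes with 1.02 and 1.03 had 0.69 (limma adjusted p = 0.0399) and 0.71 (adjusted p = 0.035). The gene with -0.87 had -0.56 (limma adjusted p = 0.0547) with piperonyl butoxide. No other compound gave a call in these genes.

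Direct comparisons were made with methapyrilene, an antihistamine given here at 114 µM, and tolbutamide, a sulfonylurea given at 2.1 mM. The DMSO arrays cancel from these differences but still entered the shared estimate of the spread, and so the p-values. The comparisons asked whether the level with nifedipine minus that with the other compound differed between 48 h and 24 h. The concentrations differ, so the values hold for these exposures. Against methapyrilene, 14 genes were called (limma), 0.0698 percent, with 3 higher and 11 lower. Against tolbutamide 4 were called, 0.0199 percent, with 4 higher and 0 lower. The unadjusted p was under 0.05 in 1476 genes against methapyrilene and in 1961 against tolbutamide. Of the 8 genes above, 2 were called against methapyrilene and 1 against tolbutamide, and the nifedipine arrays that chose them enter these comparisons too.

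ENSG00000183876 was called against both compounds. At 48 h its level was 5.71 ± 0.11 with nifedipine, against 5.06 ± 0.18 with methapyrilene and 5.14 ± 0.22 with tolbutamide (SD, n = 3 each). At 24 h it was 4.84 ± 0.053 with nifedipine, against 5.40 ± 0.10 with methapyrilene and 5.59 ± 0.15 with tolbutamide. Nifedipine was thus the highest of the 3 at 48 h and the lowest at 24 h. The difference was 1.22 (SE 0.19, limma adjusted p = 0.00391) against methapyrilene and 1.32 (SE 0.19, limma adjusted p = 0.0008) against tolbutamide.

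The other IDs named against methapyrilene showed where the compounds parted. The lowest called difference was that of ENSG00000163393 at -2.50 (SE 0.52, limma adjusted p = 0.0371). Its levels were 6.96, 6.56 and 6.09 with nifedipine at 48 h, against 8.23, 8.62 and 7.19 with methapyrilene, and at 24 h they were 6.38, 6.41 and 6.05 with nifedipine, against 5.16, 4.99 and 5.63 with methapyrilene. Methapyrilene was the higher at 48 h and the lower at 24 h in every array. Against DMSO the response of this gene differed between the times by -0.010 with nifedipine and by 2.49 (limma adjusted p = 0.0072) with methapyrilene.

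ENSG00000150961 had a difference of -1.63 (SE 0.32, limma adjusted p = 0.0247) against methapyrilene. Its levels were 5.24, 5.02 and 4.83 with nifedipine at 48 h, against 5.95, 6.68 and 5.68 with methapyrilene, and at 24 h they were 6.09, 6.40 and 5.12 with nifedipine, against 5.37, 5.32 and 5.25 with methapyrilene. Nifedipine 24 h replicate 3 was the 1 nifedipine array below methapyrilene at 24 h. ENSG00000084092 had a difference of 0.81 (SE 0.16, limma adjusted p = 0.0314), with mean levels of 9.58 with nifedipine and 9.20 with methapyrilene at 48 h, and of 9.16 with nifedipine and 9.59 with methapyrilene at 24 h. Against tolbutamide, ENSG00000166173 had a difference of 1.32 (SE 0.23, limma adjusted p = 0.0102). Its mean level was 7.65 ± 0.098 with nifedipine and 6.73 ± 0.35 with tolbutamide at 48 h, and 6.85 ± 0.13 with nifedipine and 7.25 ± 0.059 with tolbutamide at 24 h (SD, n = 3 each).

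The counts of these comparisons also moved with single arrays. Against methapyrilene, the count was 37 without nifedipine 24 h replicate 3. It was 3 without methapyrilene 24 h replicate 1, 9 without methapyrilene 24 h replicate 3, 8 without methapyrilene 48 h replicate 1 and 0 without methapyrilene 48 h replicate 2. In the last case limma gave a smallest adjusted p of 0.0624 and 1360 genes with an unadjusted p under 0.05. It was 3 without nifedipine 24 h replicate 1, 7 without nifedipine 24 h replicate 2, 2 without nifedipine 48 h replicate 2 and 5 without nifedipine 48 h replicate 3. With no replicate block it was 7, with 1 higher and 6 lower. Against tolbutamide, the count was 41 without nifedipine 24 h replicate 3, 1 without nifedipine 24 h replicate 1, 2 without nifedipine 48 h replicate 3, 8 without tolbutamide 48 h replicate 1 and 2 without tolbutamide 48 h replicate 3. Without the 4 arrays with a slope below 0.95, 246 genes were called against methapyrilene, with 79 higher and 167 lower, and 474 against tolbutamide, with 298 higher and 176 lower. In all 3 comparisons the count was highest, among fits that left out 1 array of the compounds or DMSO compared, without nifedipine 24 h replicate 3.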

How the data were processed

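Per the submitters' processing notes, the authors made the deposited log2 expression values with RMA (background correction, normalization between arrays and summary of probes). Neither the RMA version nor how probe sets were defined is given in the sources used here. RMA gives no view of total RNA per cell. The table had 20056 gene IDs and 54 columns, with 0 missing values, and was used without a filter.

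The values were fitted with limma 3.58.1 under R 4.3.3 (two-sided moderated tests) over all 54 arrays in 16 groups of compound and time, with 34 residual degrees of freedom. The number of a replicate within its time entered as a block, since the labels' matching control field ties each compound array to DMSO arrays that share its time and number. Deviations from group means of nifedipine and DMSO arrays of the same number correlated by a mean of 0.085 at 24 h and 0.242 at 48 h, with 3 of 6 pairs over 0.1 at each time, so the block rests on the labels. The comparisons, lists and named genes were chosen with earlier results of these data known. All called genes were to be named, but the reference table gave a symbol for 0 IDs, so at most 2 higher and 2 lower IDs per comparison are printed. For the same reason 38 gene lists were not tested.

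The fit was tested on simulated data with 200 genes changed for this comparison among 20056. It recovered 22, 68, 86 and 94 percent of 50 genes each at log2 changes of 0.585, 1, 1.585 and 2, and called 10 of 19856 unchanged genes. The simulated noise was normal, independent between genes and, for each gene, of the same SD in every array. The real arrays differed in spread, so these shares need not hold for them. Alternatives were no block, only the nifedipine and DMSO arrays, DMSO exposures averaged or used singly, the lowest 0.25 of genes left out, median centring, cyclic loess, a trended and robust eBayes, array weights (whose iteration stopped before its tolerance was met) and arrays left out. Leaving out each of the 36 arrays of other compounds, and 3 alternatives for the fit without the compressed array, were chosen after seeing the data. Scan dates were not used here, so no batch beyond the replicate number was tested.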

Additional observations from a re-analysis of the deposited data

Results flagged for a closer look

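With all arrays, the nifedipine response differed between 48 h and 24 h in 8 genes (limma test of the difference, adjusted p under 0.05). The values were -2.60 for ENSG00000151012, -2.11 for ENSG00000070669, and -1.96 and -0.87 for 2 further genes. They were 1.02 and 1.03 for another 2, 1.07 for ENSG00000183876 and 1.09 for ENSG00000135052.

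In 3 of 18 groups of DMSO values, 1 array stood far from the others, where chance would give 0.9 in independent groups. The groups share the same DMSO arrays, and the flagged genes were called with these arrays. Of the 3, 1 is the slope of an array already singled out by its slope. The count of 3 therefore cannot be judged against 0.9, and no conclusion is drawn from it. The gene with a difference of -0.87 had a level of 6.95 in DMSO 24 h exposure 2 replicate 1, with the nearest of the others at 7.20. The gene with a difference of 1.02 had 11.6 in DMSO 48 h exposure 2 replicate 2, with the nearest at 12.1. The slope on the mean of all arrays was 0.911 in DMSO 24 h exposure 2 replicate 2, with the nearest at 1.01.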

How the results depend on the processing

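No difference of the 8 called genes changed sign in any setting tried. Their count of 8 was 6 with no replicate block (3 higher, 3 lower, all among the 8), 3 with only the 18 nifedipine and DMSO arrays (0 higher, 3 lower), and 0 with DMSO exposure 1 alone (limma, smallest adjusted p 0.209, 502 genes with an unadjusted p under 0.05). It was 21 with DMSO exposure 2 alone (15 higher, 6 lower), 48 without the 4 arrays with a slope below 0.95, 19 without piperonyl butoxide 48 h replicate 1 and 1080 with array weights (675 higher, 405 lower). Cyclic loess gave 8 (3 higher, 5 lower), of which 4 were among the original 8. These 4 were the genes with a lower response. All 4 original genes with a higher response lost their call there (limma, adjusted p from 0.120 to 0.205), so the 3 higher ones were other genes. Leaving out 1 of the 18 arrays gave 5 to 36. Without DMSO 24 h exposure 2 replicate 2, the count of 9 was 3 (0 higher, 3 lower) with only the 17 remaining nifedipine and DMSO arrays and 6 with no replicate block.

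The 1641 calls at 24 h were 1089 with no replicate block, 2894 without the 4 arrays, 1084 with DMSO exposures averaged, 906 with DMSO exposure 1 alone, 1089 with exposure 2 alone and 4240 with array weights, and 744 (without nifedipine 24 h replicate 1) to 1730 with 1 array left out. It was 805 without nifedipine 24 h replicate 2. The 1162 calls at 48 h were 771 with no replicate block, 2786 without the 4 arrays, 645 with DMSO exposure 1 alone (31.6 percent higher, against 42.3 with both) and 3282 with array weights, and 689 (without nifedipine 48 h replicate 2) to 1232 with 1 array left out. It was 710 without nifedipine 48 h replicate 3. Against methapyrilene, 14 calls were 7 with no replicate block and 246 without the 4 arrays, and 0 to 37 with 1 array left out. Against tolbutamide, 4 calls were 474 without the 4 arrays, 2 with arrays centred on their median and 1 to 41 with 1 array left out. The cause of these changes was not tested. The 95% intervals, which reached a median of 0.46 to each side, limited which differences could be detected.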
